A study of Mus musculus with 2 samples.

Results

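Of the 3153 peaks in the FLAG-HLF peak list, 339 (10.8%, 95% interval 9.69 to 11.9%) had their centre within 1 kb of an end of a protein-coding gene on chromosomes 1 to 19. They were chosen by position alone, either end of the gene counting alike, with gene ends from the RefSeq gene table of GRCm38.p6. The 3128 peaks on those chromosomes left 2789 peaks elsewhere for comparison. Each peak is an interval of 400 bp on the mm10 build, so the 339 gene-end peaks held 135600 bp. They lay at 374 of 20560 protein-coding genes.

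The peaks came from an anti-FLAG (Sigma F3165) chromatin immunoprecipitation followed by sequencing of Lin-Sca-1+c-Kit+ cells, a population rich in blood stem and progenitor cells, with blood as the tissue on the label. The animals were C57BL/6 mice of 8 to 10 weeks. Cells carried the MigR1 3xFLAG-HLF/HLF retrovirus, so the protein recovered was a tagged form made from a vector and not the product of the animal's own gene. Culture lasted 5 days, and the medium held 50 ng/ml of SCF, 10 ng/ml of both Flt3L and IL-7, and 5 ng/ml of IL-3. A MigR1 empty vector library, also from C57BL/6 Lin-Sca-1+c-Kit+ cells and the same antibody, was not analysed here. The list rests on 1 library and has no scores, so every peak counts alike, read depth is unknown, and each p-value and interval below describes counting over listed peaks, windows or genes and not the spread between cultures.

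HLF (hepatic leukemia factor) belongs to the PAR bZIP transcription factors with DBP and TEF, proteins whose levels follow the circadian clock in liver and other tissues. A bZIP protein binds DNA as a dimer, and each partner reads one arm of a short site in which the arms face each other. The arm TTAC gives the palindrome TTACGTAA that PAR bZIP proteins favour, and the arm TTGC gives the palindrome TTGCGCAA favoured by C/EBP proteins, the bZIP factors of myeloid cells and liver. In haematopoiesis HLF is known as a marker and regulator of stem cells, and as the partner of TCF3 in a leukaemia fusion.

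Where the middle of a gene-end peak could be read as promoter sequence, words made of such arms or their variants TTAT and TTGT were counted. They lay within 50 bp of the centre in 35 of 66 peaks, and in 8 of 16 peaks away from gene ends. This set of words was put together after the data were seen. The sequences below show the kinds of site found. Each is RefSeq promoter sequence of GRCm38.p6 on the strand of the gene named, 5′ to 3′, with the word in capitals as it reads on that strand. TTGTGTAA is TTACACAA read from the other strand, and likewise TTGCGTAA is TTACGCAA, TTATGTAA is TTACATAA and TTGCATCA is TGATGCAA. The first set joins the arm TTAC to the arm TTGT. It is shown because TTACACAA was the most frequent joined word, in 16 of the 143 promoter windows that a gene-end peak overlapped. Those windows were of 14 genes. Windows can overlap, so 1 TTACACAA site can count in more than 1 window, as at Casc1 and Etfrf1. Only some of the genes with this word are printed. In gene-end peaks its offset from the centre ran from 0 bp at Ptcd1 to 70 bp at Gpx1.
Meis1, chr11:19018984-19019039, minus strand: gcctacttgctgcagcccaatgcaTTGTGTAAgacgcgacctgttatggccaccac
Blnk, chr19:40994286-40994341, minus strand: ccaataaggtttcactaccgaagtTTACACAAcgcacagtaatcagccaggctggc
Ccl3, chr11:83649447-83649502, minus strand: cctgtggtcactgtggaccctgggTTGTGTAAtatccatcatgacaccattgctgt
Eif5a, chr11:69921949-69922004, minus strand: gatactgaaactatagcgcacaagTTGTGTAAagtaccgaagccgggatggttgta

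Meis1 is a homeobox regulator of stem cells, and its word lay 14 bp from the peak centre. Blnk is an adaptor of B cell receptor signalling, Ccl3 a chemokine of macrophages and Eif5a a translation factor. Their words lay 6, 12 and 8 bp from the peak centres. The next set joins TTAC to TTGC, one arm of each palindrome, and is shown because TTACGCAA stood out most against promoters with no peak.
Ccp110, chr7:118712408-118712463, plus strand: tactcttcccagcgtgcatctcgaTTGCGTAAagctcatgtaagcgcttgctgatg
Jmjd8, chr17:25828993-25829048, plus strand: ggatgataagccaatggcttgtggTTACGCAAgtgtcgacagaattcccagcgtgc
Srsf2, chr11:116853167-116853222, minus strand: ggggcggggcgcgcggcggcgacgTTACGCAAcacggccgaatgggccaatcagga

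Ccp110 encodes a centriole protein and Srsf2 a splicing factor. The word lay at the peak centre (0 bp) at Ccp110, and 4 and 16 bp from it at Jmjd8 and Srsf2. The next set holds TTACATAA, a common variant of the PAR bZIP palindrome.
Nlrc4, chr17:74459142-74459197, minus strand: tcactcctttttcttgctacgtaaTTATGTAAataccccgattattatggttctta
Irf2bp1, chr7:19003999-19004054, plus strand: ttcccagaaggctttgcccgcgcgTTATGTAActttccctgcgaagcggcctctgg
Clec12a, chr6:129350133-129350188, plus strand: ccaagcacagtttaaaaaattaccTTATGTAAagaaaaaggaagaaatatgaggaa

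Nlrc4 is an inflammasome sensor, Irf2bp1 a corepressor partner of IRF2 and Clec12a an inhibitory lectin receptor of myeloid cells. The words lay 4 bp from the peak centre at Nlrc4, 16 bp at Irf2bp1 and 52 bp at Clec12a. Another set holds the C/EBP palindrome TTGCGCAA. Clec12a is printed again because its peak held both words.
Clec12a, chr6:129350080-129350135, plus strand: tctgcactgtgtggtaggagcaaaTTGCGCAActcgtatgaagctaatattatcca
Man1b1, chr2:25332680-25332735, plus strand: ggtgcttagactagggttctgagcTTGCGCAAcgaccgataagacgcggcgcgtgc
Mpc2, chr1:165461044-165461099, plus strand: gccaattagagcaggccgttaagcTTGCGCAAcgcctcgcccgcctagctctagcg

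The Clec12a TTGCGCAA word lay at the peak centre, with an offset of 0 bp. Man1b1, a mannosidase that trims glycoproteins, had its word 6 bp from the centre, and Mpc2, a subunit of the mitochondrial pyruvate carrier, had its word 20 bp away. A further set joins the arm TTAT to TTGC, shown at 2 of the 8 genes whose windows held TTATGCAA. They are the disulfide isomerase Txndc5 and the protease cathepsin L (Ctsl), picked after their values were seen. The others were Gstt1, Hdgf, Hmgn2, Mphosph10, Paqr7 and Pbld2.
Txndc5, chr13:38528835-38528890, minus strand: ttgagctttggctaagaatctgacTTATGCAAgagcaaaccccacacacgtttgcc
Ctsl, chr13:64370603-64370658, minus strand: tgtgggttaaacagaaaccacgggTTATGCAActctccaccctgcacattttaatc

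The word lay at the centre at Txndc5 (0 bp) and 2 bp from it at Ctsl. One more set holds TGATGCAA, an arm of ATF proteins joined to TTGC, known as a C/EBP-ATF composite element. It is shown because 5 of its 7 matches in gene-end peaks lay within 50 bp of the centre. The word was chosen for display after the data were seen. The nearest matches are printed, and those of Esrra and Atf3 lay 70 and 110 bp from the centre.
Nlrp3, chr11:59541467-59541522, plus strand: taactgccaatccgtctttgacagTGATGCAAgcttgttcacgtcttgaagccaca
Yars, chr4:129189882-129189932, plus strand: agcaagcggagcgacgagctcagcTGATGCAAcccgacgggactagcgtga
Herpud1, chr8:94386293-94386348, plus strand: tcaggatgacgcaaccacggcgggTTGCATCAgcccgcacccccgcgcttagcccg

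Nlrp3, another inflammasome sensor, and Yars, the tyrosyl-tRNA synthetase, each had the word 4 bp from the peak centre. Herpud1, a factor of endoplasmic reticulum stress, had it 6 bp away. The last set shows the 61 bases around the peak centre at Tef, a PAR bZIP gene, and Irak3, an inhibitor of Toll-like receptor signalling. Within 50 bp of these centres no joined word and no TGATGCAA was found. The Irak3 sequence does hold TTGCNNAA, the C/EBP word with any bases (N) in the middle, read from the other strand.
Tef, chr15:81802498-81802558, plus strand: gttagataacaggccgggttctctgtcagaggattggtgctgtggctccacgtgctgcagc
Irak3, chr10:120202103-120202163, minus strand: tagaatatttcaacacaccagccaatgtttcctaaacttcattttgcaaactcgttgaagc

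Gene-end peaks lay mostly at the starts of genes. The strand of 16457 of the 20560 genes (80.0%) was given by the promoter table, which sets the 5′ end of those genes. The nearest end was a 5′ end for 229 peaks (67.6%), a 3′ end for 47 (13.9%) and not assigned for 63 (18.6%). Among the 267 peaks near one kind of assigned end only, 221 (82.8%, 77.7 to 87.1%) were at 5′ ends. Equal shares were the reference, since 49.9% of the bases within 1 kb of one assigned kind of end lie at 5′ ends (two-sided exact binomial test, p = 1.31e-28).

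The 5′ peaks also lay closer to their end than the 3′ peaks did. The distance from peak centre to gene end had a median of 312 bp at 5′ ends, with quartiles of 122 and 547 bp. At 3′ ends the median was 517 bp, with quartiles of 314 and 745 bp. Within 200 bp of the end lay 88 of 229 5′ peaks (38.4%, 32.1 to 45.1%) and 5 of 47 3′ peaks (10.6%, 3.55 to 23.1%), an odds ratio of 5.24 (1.998 to 13.8; two-sided Fisher's exact test, p = 0.000148, a comparison chosen after the data were seen). Within 100 bp lay 52 of the 5′ peaks and none of the 47 3′ peaks, a count of 0 that allows a share of up to 7.55%.

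Around 5′ ends the peaks piled up just before and at the start. The 100 bp outside the gene held 28 centres, the 100 bp before that held 27, and the first 100 bp inside held 24. The next 2 bins of 100 bp inside held 9 each. Further out the counts did not fall steadily, as the bin from 400 to 500 bp held 17 centres inside and 16 outside. Around 3′ ends no bin of 100 bp held more than 4 peaks, and the 2 bins next to the end held 0.

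**Figure D1:**
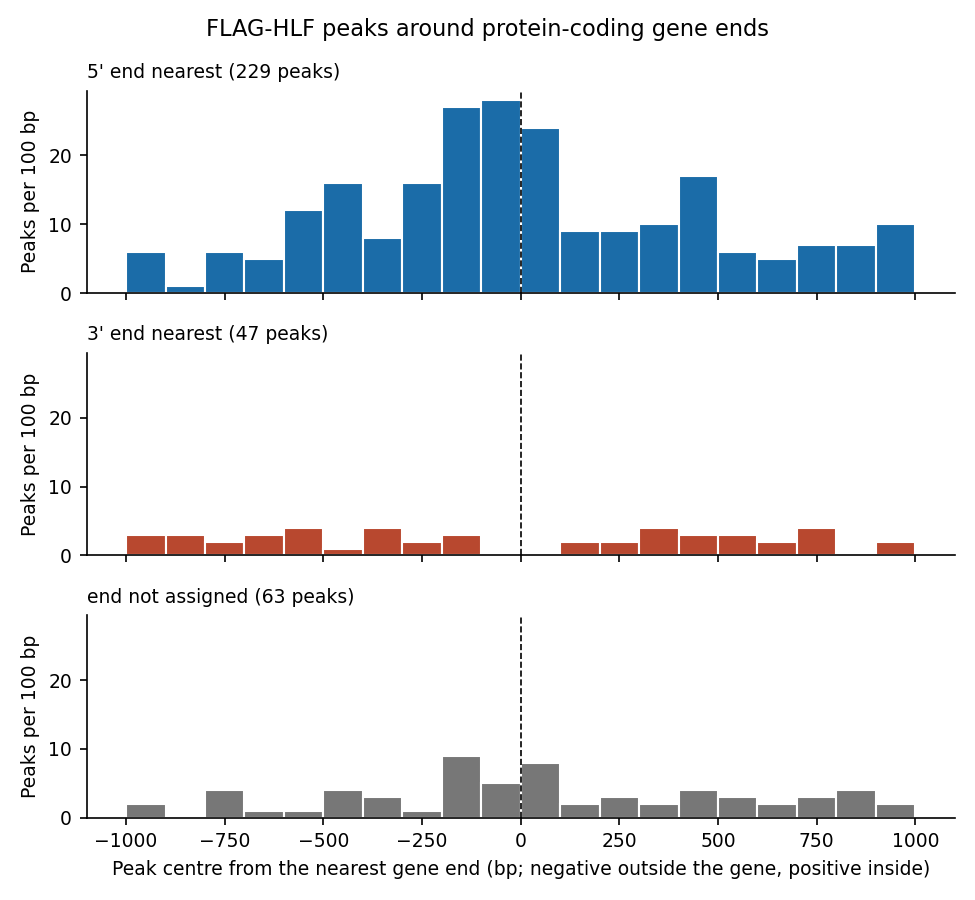
Number of FLAG-HLF peak centres per 100 bp (vertical axes) against distance from the nearest protein-coding gene end in bp (horizontal axis, negative outside the gene, positive inside), for 229 peaks at 5′ ends, 47 at 3′ ends and 63 whose end was not assigned. The 5′ peaks rise to 28 per bin beside the dashed line that marks the end, whereas the 3′ peaks stay at 4 or fewer per bin with 0 in the bins next to it.

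No unequal split between the inside and the outside of genes was detected over all 339 peaks. The centre lay inside the gene of the nearest end for 159 of 339 peaks (46.9%, 41.5 to 52.4%; two-sided exact binomial test against equal shares, p = 0.277), where 50.1% of the bases within 1 kb lie inside. The shares were 104 of 229 at 5′ ends (45.4%, p = 0.186 in the exact binomial test) and 22 of 47 at 3′ ends (46.8%, p = 0.771 in the exact binomial test), both tests chosen after the data were seen. Among the 117 peaks within 200 bp of an end the share inside was lower, 38.5% (exact binomial p = 0.0159). In all, 164 peaks (48.4%) lay in no protein-coding gene body, and 8 lay in more than 1.

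The closest peaks sat almost on the annotated end. Atf3, a stress-induced bZIP factor (chr1:191183131-191183530), had its peak centre 3 bp inside its 5′ end. The Irak3 peak (chr10:120201934-120202333) and the peak of the peptidase inhibitor Pi16 (chr17:29318594-29318993) were each centred 3 bp outside the 5′ end. A peak at the keratin gene Krt83 (chr15:101484934-101485333) was also 3 bp from an end, which was not assigned.

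Id1, an inhibitor of basic helix-loop-helix factors (chr2:152736061-152736460), had its peak centre 9 bp inside an end that was not assigned. The Eif5a peak lay at chr11:69921769-69922168, centred 10 bp before the 5′ end. Ptcd1, a mitochondrial RNA-binding protein (chr5:145166891-145167290), had its centre 14 bp inside the 5′ end. Srrm3, a splicing regulator (chr5:135806676-135807075), was at 15 bp, and Irf2bp1 (chr7:19003843-19004242) at 16 bp. These 9 are among the 10 nearest with a conventional gene symbol, and all 7 of them with an assigned end were at the 5′ end.

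At the other limit of the rule, the peaks of S100a13 (3′ end) and Eif4a1 (5′ end) were just inside it at 988 bp and that of Epha10 at 983 bp. Macir at 1005 bp, Ttc33 at 1009 bp and Fbxo31 at 1011 bp were just outside it, all at 5′ ends.

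Some annotated ends are not the only start of a gene. The promoter table holds 20063 windows for 16437 genes, each from 250 bases before to 50 bases after a start, so that Meis1, whose peak centre was 654 bp inside the outermost end, has its word 46 bp before another RefSeq start. Srsf2 (496 bp inside), Clec12a (325 bp inside) and Hdgf, a growth factor gene (700 bp inside), were of the same kind. Gene-end peaks overlapped 143 windows of 132 genes, and 127 peaks (37.5% of the 339) had any base read, with a median of 254 bases. No promoter base was read in the other 212 gene-end peaks, among them those of Per1, Per2, Nr1d2, Id1 and Nfe2.

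The joined words were in a larger share of the overlapped windows than of all promoters. The palindrome TTACGTAA was in 0 of 143 windows, which allows a share of up to 2.55%, and in 0.120% of all 20063 windows. The variant TTACATAA was in 9 windows (6.29%, 2.92 to 11.6%) against 0.902% of all windows. Those 9 were at Baz1b, Cgas, Clec12a, Coq10b, Hdgf, Irf2bp1, Nlrc4, Stk38 and Sumo2. The word of the Cgas window lay outside the peak, which covered 9 bases of the promoter sequence read, and the other 8 lay inside theirs.

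TTGCGCAA was in 5 windows (3.497%, 1.15 to 7.97%) against 0.219% of all. They were those of Clec12a, Man1b1, Mpc2, Cep295, a centriole protein gene, and Dclre1c, the nuclease Artemis. With any bases in the middle, TTGCNNAA was in 39 windows (27.3%, 20.2 to 35.4%) against 10.3%. Besides TTGCGCAA it also matches TTACGCAA (9 windows), TTATGCAA (8) and TTGCACAA (6), so its share is not separate from theirs. Both strands were searched throughout, and a word that overlaps another was counted under each.

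A ranking of all 8-letter words put words of this kind first. Among the 349 words found in at least 8 overlapped windows, ordered by their share there over the share in the 19888 windows without a peak, TTACGCAA ranked first with 9 windows against 32. TTACACAA ranked second with 16 windows (11.2%) against 113 (0.568%). The next word, CTTGTGTA, overlaps TTACACAA on the other strand. TTATGCAA came after it with 8 windows against 148, followed by TTACATAA with 9 against 170.

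TTACGCAA joins an arm of the PAR bZIP palindrome to one of the C/EBP palindrome, and TTACATAA is a single-base variant of the PAR bZIP palindrome. After the data were seen, all 10 joins of 4 such arms and their variants were counted together: TTACGTAA, TTACATAA, TTACGCAA, TTACACAA, TTATATAA, TTATGCAA, TTATACAA, TTGCGCAA, TTGCACAA and TTGTACAA. At least 1 was in 58 of 143 overlapped windows (40.6%, 32.4 to 49.1%) and in 984 of all 20063 (4.91%). Where the window held the peak centre itself, the share was 54 of 96 (56.3%, 45.8 to 66.4%). The open-centre TTACNNAA was in 47 of 143 (32.9%) against 8.05% of all. It takes in TTACGTAA, TTACATAA, TTACGCAA and TTACACAA, so its share is not separate from theirs. No test was made on these words, because some were picked from the same windows.

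The remaining joins were in few windows each. TTGCACAA was in 6 windows (4.20%) against 0.987% of all, and TTATATAA in 4 (2.80%) against 0.484%. TTATACAA was in 3 (2.10%) against 0.533%, among them that of Gbp3, an interferon-induced GTPase. TTGTACAA, the arm TTGT joined to itself, was in 0 windows, as was TTACGTAA. Both were also rare in all windows, at 0.204% and 0.120%, so nothing is read from their absence. TGATGCAA was in 7 windows (4.90%, 1.99 to 9.83%) against 0.763% of all, those of Atf3, Esrra, Herpud1, Nlrp3, Pi16, Pld4 and Yars.

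Words of other promoter factors differed less between the overlapped and all windows. The GC box GGGCGG was in 55.2% (46.7 to 63.6%) against 47.0%, and CCAAT, the word of NF-Y, in 43.4% (35.1 to 51.9%) against 38.1%. CCGGAAG, an ETS word, was in 16.1% against 11.9%, and GAGGAAGT, a word of PU.1, in 4.90% against 3.19%. The E-box CACGTG, read by clock and MYC-type factors, was in 13.3% (8.19 to 19.97%) against 7.89%.

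Among bZIP words of other families, TGACGTCA, the cAMP response element, was in 4.20% (1.56 to 8.91%) against 2.30%. TGACGCAA was in 2.10% against 0.648% and the AP-1 word TGANTCA in 3.497% (1.15 to 7.97%) against 7.06%. TATAAA was in 7.69% (3.90 to 13.4%) against 12.7% and the GATA word AGATAA in 7.69% (3.90 to 13.4%) against 9.58%. The overlapped windows had a median GC content of 59.7%, and all windows 57.0%.

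**Figure D2:**
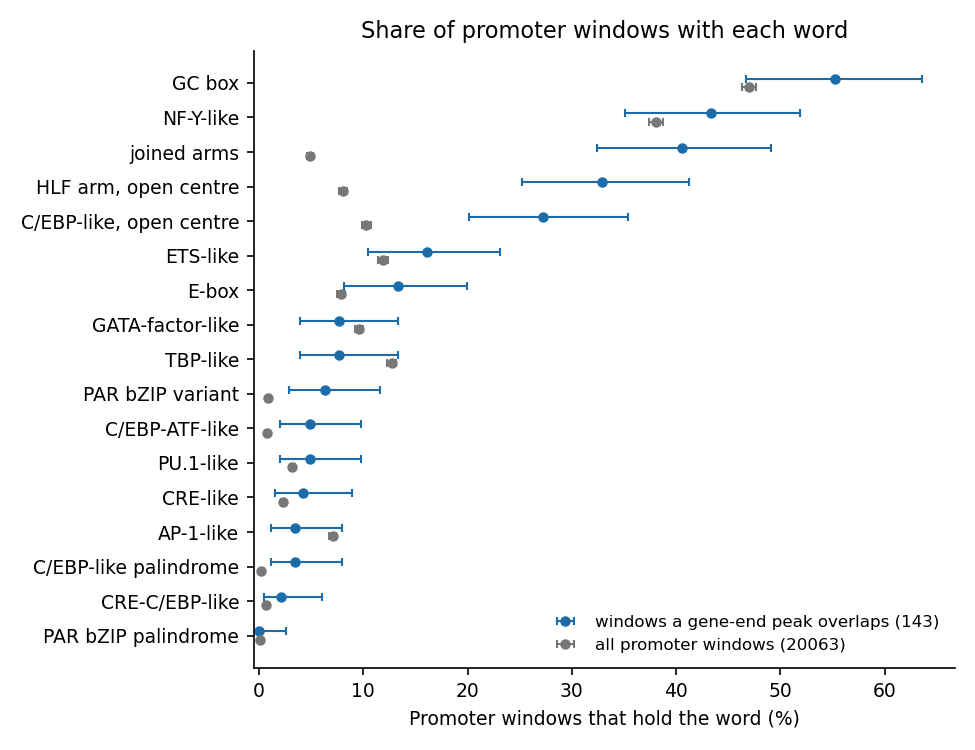
Share of promoter windows (percent, horizontal axis) that hold each word, for the 143 windows that a gene-end peak overlaps (blue) and all 20063 windows (grey), with exact 95% intervals over windows as bars. The joined arms stand at 40.6% against 4.91%, while the GC box stands at 55.2% against 47.0%. The set of joined arms was put together after the data were seen.

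The joined words sat in the middle of the peaks. Within 25 bp of the centre there were 35 words in 4315 positions read, or 8.11 per kb (5.65 to 11.3). The density was 2.61 per kb from 25 to 50 bp, 1.04 from 50 to 100 bp, 0.149 from 100 to 150 bp and 0 from 150 to 200 bp. From 100 to 1000 bp it was 0.0901 per kb (0.0293 to 0.210), and over all promoter windows 0.179. The 50 bp on either side of the centre, with 5.39 per kb (3.94 to 7.19), thus held 30.2 times the density of all windows. Some of the words were picked from these same windows, so the ratio is a description and was not tested.

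The 55 joined words found inside gene-end peaks had a median offset of 12 bp from the centre and a largest one of 106 bp. Of them, 25 lay within 10 bp, 46 within 50 bp and 54 within 100 bp. TGATGCAA had 5 matches within 50 bp of the centre, 0.586 per kb (0.190 to 1.37), where all windows had 0.0272 per kb.

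The GC box did not share this pattern. Its density was 1.98 per kb (1.16 to 3.17) within 50 bp of the centre and 4.70 (4.15 to 5.31) from 100 to 1000 bp, where all windows had 3.46. The NF-Y word was at 2.12 per kb within 50 bp and 1.69 from 100 to 1000 bp.

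**Figure D3:**
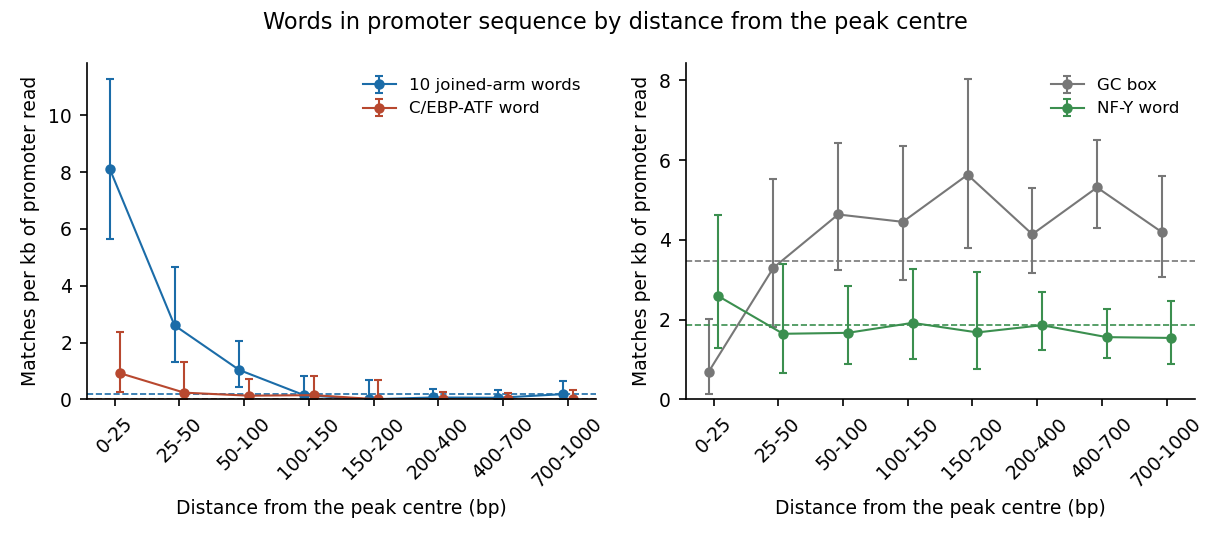
Matches per kb of promoter sequence read (vertical axes, linear) by distance from the peak centre in bp (horizontal axes, bins of unequal width), with exact Poisson 95% intervals and dashed lines for the density in all promoter windows. The 10 joined-arm words fall from 8.11 per kb within 25 bp to 0 between 150 and 200 bp, and the GC box lies lowest in the bin at the centre.

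Single peaks can be described only where their middle was read. All 101 central bases were read in 66 gene-end peaks, of which 35 (53.0%, 40.3 to 65.4%) had a joined word within 50 bp of the centre. Counting the open-centre TTACNNAA as well gave 40 of 66 (60.6%, 47.8 to 72.4%). The other 26 had neither, among them the peaks of Tef, Irak3, Nlrp3 and Herpud1, the last 2 of which held TGATGCAA. The open-centre TTGCNNAA was not counted by peak, and the Irak3 sequence printed above holds it. Of 127 peaks with any promoter base read, 52 (40.9%) held a joined word and 3 held more than 1, those of Hdgf, Clec12a and Tarm1, an activating receptor of myeloid cells.

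The words were not shown to be particular to the gene-end peaks. Only 32 of the 2789 other peaks (1.15%) had any promoter base read, so other peaks away from promoters were not compared. The promoter table reached 32 windows overlapped by other peaks alone, of which 12 (37.5%, 21.1 to 56.3%) held a joined word. In the 16 such peaks with a fully read middle, 8 had a joined word within 50 bp, a share of 50.0% (24.7 to 75.4%) whose interval holds the 53.0% of the gene-end peaks.

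The genes at these peaks included a small group of the circadian clock, to which PAR bZIP factors belong. Across all protein-coding genes on chromosomes 1 to 19, 1.82% had a gene-end peak. In a list of clock and PAR bZIP genes, 4 of 23 did (17.4%, 4.95 to 38.8%). The peak of Per1, a repressor of the clock, lay at chr11:69094624-69095023, 285 bp before the 5′ end. The peak of its paralogue Per2 (chr1:91459245-91459644) was 93 bp outside an end that was not assigned.

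Tef, the PAR bZIP paralogue of HLF, had its peak at chr15:81802329-81802728, 145 bp before the 5′ end. Nr1d2, the nuclear receptor REV-ERB beta, had its peak at chr14:18238420-18238819, 487 bp inside the 5′ end. No gene-end peak was listed for the other 19, among them Dbp, Nfil3, Bhlhe40, Nr1d1 and Hlf itself.

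Other bZIP genes had 3 of 36 (8.33%, 1.75 to 22.5%). Besides Atf3 these were Atf4, a factor of the integrated stress response, 928 bp inside its 5′ end, and Nfe2, a factor of megakaryocytes and erythroid cells, 19 bp inside an unassigned end. Immediate early and signalling feedback genes had 4 of 25 (16.0%, 4.54 to 36.1%). The pseudokinase genes Trib1 and Trib3 had peaks at 107 and 501 bp, and Spred1, an inhibitor of RAS signalling, at 973 bp. The peak of Nfkbia, the inhibitor of NF-kappaB, was 516 bp beyond its 3′ end.

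Blood lineage lists held 1 or 2 genes each. Granulocyte and monocyte genes had 2 of 28 (7.14%), the integrin Itgam at 932 bp and Id1 at 9 bp. Lymphoid genes had 1 of 27 (3.70%), Blnk at 99 bp. Megakaryocyte and erythroid genes had 1 of 18 (5.56%), Nfe2. Stem and progenitor regulators had 1 of 28 (3.57%), Meis1, so that none of the other 27, such as Gata2, Tal1 or Kit, had a peak at a gene end.

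Among cytokine receptor and JAK-STAT genes, 2 of 26 had one (7.69%), the interferon gamma receptor Ifngr1 at 429 bp and the interleukin-4 receptor Il4ra at 378 bp. Cell cycle genes had 1 of 25, the G1 kinase Cdk4 at 313 bp inside its 5′ end. Apoptosis genes had 1 of 20 (5.00%), the apoptosome gene Apaf1 at 670 bp, in a peak that also lay 664 bp from the 5′ end of Ikbip. Elongation genes had 1 of 15 (6.67%), the cyclin Ccnt2 at 428 bp.

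The remaining 4 lists included the neuronal and liver controls. Only the clock and PAR bZIP list and the immediate early and feedback list had intervals above the 1.82% of all genes. The intervals of all other lists, those of blood lineages and the controls among them, held that value. Neuronal genes had 2 of 19 (10.5%, 1.30 to 33.1%), the glutamate receptor Grin1 at 168 bp and the synaptic gene Snap25 at 901 bp. Liver genes had 0 of 19, heat shock and folding genes 0 of 20 and chromatin regulators 0 of 23. Over the 15 lists 22 of 340 distinct genes had a gene-end peak. The lists are short and were chosen with earlier results of these data known, so the counts are given with no test.

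**Figure D4:**
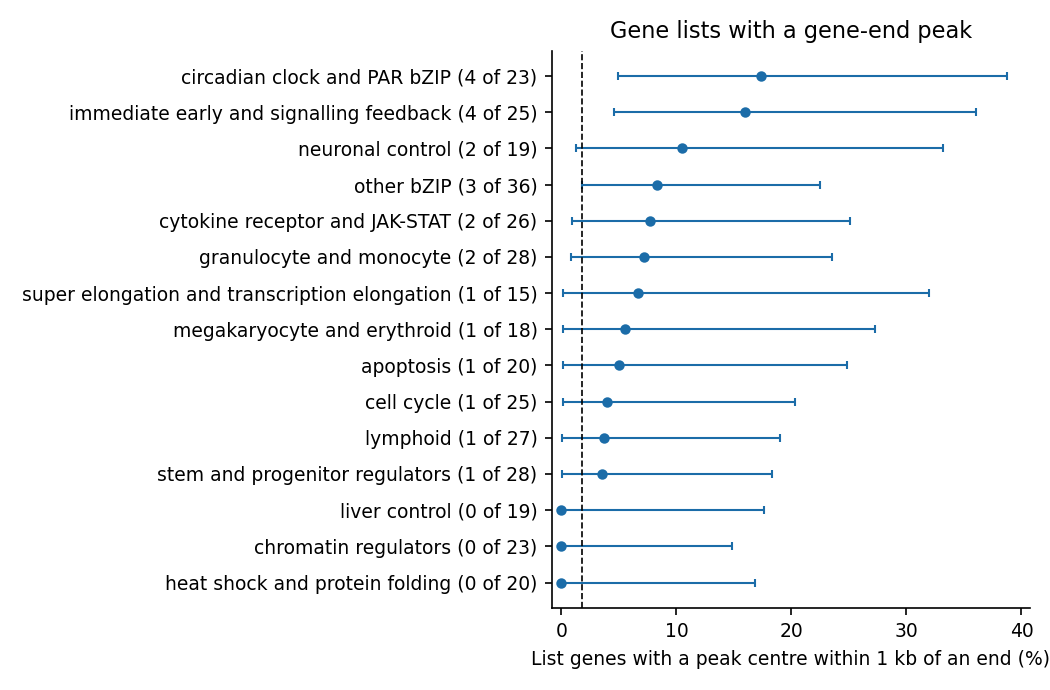
Share of each gene list with a FLAG-HLF peak centre within 1 kb of a gene end (percent, horizontal axis), with exact 95% intervals over genes as bars and counts in the labels. The dashed line marks the 1.82% of all protein-coding genes, and the highest shares are those of the clock and PAR bZIP list (4 of 23) and the immediate early and feedback list (4 of 25).

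Among 16 gene families taken by symbol, the interval of the share with a gene-end peak held the 1.82% of all genes except for the olfactory and vomeronasal receptors, which were below it. Cytosolic ribosomal protein genes (Rpl and Rps) had 0 of 91, which allows a share of up to 3.97%, and Hox genes 0 of 39. Olfactory receptors had 1 of 1103 (0.0907%, 0.00230 to 0.504%), Olfr70, and vomeronasal receptors 0 of 351, which allows a share of up to 1.05%. Proteasome genes had 3 of 50 (6.00%, 1.26 to 16.6%), Psmb3, Psmd4 and Psme1. Translation initiation genes with the Eif prefix had 3 of 53 (5.66%), Eif2d, Eif4a1 and Eif5a.

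Small GTPases with the Rab prefix had 4 of 65 (6.15%, 1.70 to 15.0%), Rab10, Rab27a, Rab30 and Rab40c. Solute carriers had 8 of 362 (2.21%), among them Slc11a1, a metal transporter of phagosomes at 54 bp. Tmem genes had 7 of 231 (3.03%), Zfp genes 3 of 388 (0.773%), Ccdc genes 2 of 134 (1.49%) and histone genes 2 of 75 (2.67%). Mitochondrial ribosomal genes had 1 of 78 (1.28%), Usp genes 1 of 50, keratin genes 1 of 53 and Trim genes 0 of 68.

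Some peaks lay at 2 genes at once. In 40 of 339 peaks (11.8%, 8.57 to 15.7%) the centre lay within 1 kb of ends of 2 genes, and in none of 3 or more. Of all bases within 1 kb of a gene end, 7.58% lie near ends of more than 1 gene, a description given without a test. Both ends were 5′ ends in 21 of the 40 and a 5′ end with a 3′ end in 5.

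Among the 10 closest such peaks, Ptcd1 and Cpsf4, a factor of mRNA 3′ processing, shared one at 14 and 123 bp, with ends 109 bp apart. Tmem198 and Chpf, a chondroitin synthesis gene, shared one at 39 and 100 bp, and Casc1 and Etfrf1 one at 31 and 148 bp.

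Jmjd8 and Wdr24 were 19 and 294 bp from their peak. Ddias and Prcp were 97 and 239 bp from theirs, and Mpc2 and Dcaf6 168 and 186 bp. The nuclear receptor gene Esrra had its 5′ end 53 bp from a peak that was also 325 bp from the 3′ end of Catsperz. Dqx1 and Aup1 were 159 and 224 bp from a shared peak, and Mphosph10 and Mcee 49 and 337 bp.

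Few genes had more than 1 gene-end peak. Casc1 and Etfrf1 shared 2 peaks with centres 935 bp apart. Ccl9, a chemokine of myeloid cells, had a peak 46 bp inside its 5′ end and one 665 bp outside it. Psme1, a proteasome activator subunit induced by interferon, had one 455 bp outside and one 597 bp inside. Irak3 was the single gene with a peak at each end, at 3 bp from the 5′ end and 307 bp from the 3′ end, 60792 bp apart.

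The genes at 3′ peaks named next were picked after their values were seen, and nothing is read from them as a group. Beyond Nfkbia and Irak3, peaks lay 713 bp beyond the 3′ end of Rela, the NF-kappaB subunit p65, and 819 bp beyond that of Tgfbr2, a TGF-beta receptor. The chemokine gene Ccl17 had its centre 137 bp inside its 3′ end, and the stress gene Gadd45a 476 bp inside. Il18r1, an interleukin-18 receptor chain, had its peak 903 bp beyond the 3′ end. Closest to a 3′ end were Ccl17 and the motor protein gene Kif1a, at 139 bp.

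Some gene-end peaks also lay within 1 kb of an end of a noncoding gene, 34 of 339 (10.0%, 7.05 to 13.7%). Long noncoding RNA genes accounted for 30 and miRNA genes for 3, which were Mir8120 at Lekr1, Mir6924 at Acap1 and Mir1938 at Ifrd1. The 34 peaks were 28 of the 229 5′ peaks and 0 of the 47 3′ peaks, and the rest were at unassigned ends. The share of bases near noncoding gene ends was not counted, so no excess is read from these counts.

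Gene-end peaks did not differ detectably from other autosomal peaks in how often another peak was near. Another peak centre lay within 25 kb of 63 of 339 gene-end peaks (18.6%, 14.6 to 23.1%) and of 605 of 2789 other peaks (21.7%, 20.2 to 23.3%). The odds ratio was 0.824 (0.618 to 1.10; two-sided Fisher's exact test, p = 0.207). The median distance to the nearest other peak was 111324 bp for gene-end peaks and 102061 bp for the others.

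Chromosome 11 held the most gene-end peaks, 37, among them those of Per1, Meis1, Ccl3, Ccl9, Eif5a, Srsf2 and Nlrp3. Gene-end peaks made up 26 of 156 peaks on chromosome 7 (16.7%, 11.2 to 23.5%), the highest share of an autosome, against 10.8% over chromosomes 1 to 19. Chromosome 17 was close to it, with 21 of 127 (16.5%). Per gene, chromosome 11 was again highest, with 2.56% (1.84 to 3.46%) of its protein-coding genes at a gene-end peak, against 1.82% of all. No test was made between chromosomes.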

How the data were processed

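The series measured FLAG-HLF binding by ChIP-seq in Lin-Sca-1+c-Kit+ cells, with 1 library analysed here. The peak positions, the start and end of each interval, are the other kind of value deposited by the authors: 3 columns with no header, score or read count. The submitters' processing notes list Bowtie2 2.0.6, MACS2 2.0.10 and mm10 without a role or a threshold. Libraries had 15 PCR cycles, per the labels' protocols. How every interval came to be 400 bp wide, and whether the control library entered the peak calling, is not given in the sources used here. A fixed width hides how far a peak reached, and the missing scores leave weak and strong peaks alike. Depth is unknown, so no precision can be given for any single peak.

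The peak centre is the start plus 200 bp. Gene rows with a start under 3 Mb, which carry scaffold positions, were dropped. Gene names and ends are those of RefSeq GRCm38.p6, and strand came from its promoter windows (300 bases). Distances were measured to either end of each gene, and the nearest decided the class. Shares carry exact Clopper-Pearson 95% intervals, densities exact Poisson intervals, and tests were exact binomial or Fisher tests in SciPy 1.17.1 under Python 3.11.15 with pandas 2.3.3 and NumPy 2.4.6, at a threshold of 0.05 and without adjustment. The odds ratios have Woolf intervals. The scripts were tested on simulated data. Words were searched on both strands of the promoter windows. Exons and introns were not used here.

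The members and lists were chosen with earlier results of these data known. The genes named are the 10 nearest to an end, genes with more than 1 peak, list genes with a peak, the 3 peaks on each side of the limit, the 10 closest peaks between 2 genes and the genes with TTACATAA or TTGCGCAA. One peak that this rule names is not reported here. The rest were chosen after their values were seen. Alternatives were other distances, all annotated genes, interval overlap, merged peaks and other window rules.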

Additional observations from a re-analysis of the deposited data

How the results depend on the processing

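The number of gene-end peaks moved with the definition of an end. It was 226 at 500 bp, 536 at 2 kb, 509 with every annotated gene, 394 when any base of the interval counted, 342 with chromosome X and 337 after peaks within 1 kb were merged. The share at 5′ ends was 88.5% within 500 bp, 94.6% within 200 bp and 83.0% when each peak went to its nearer end, past the threshold each time. The share inside the gene fell past the threshold within 200 bp (38.5%, exact binomial p = 0.0159) and not within 500 bp (43.8%, exact binomial p = 0.0723), and the cause was not tested. The odds ratio for a neighbouring peak was 0.869 at 10 kb, 0.905 at 100 kb and 0.803 with merged peaks, with an exact p of 0.524, 0.389 and 0.172. List genes with a peak numbered 14 at 500 bp, 31 at 2 kb and 16 at 5′ ends only. Of the single lists' counts under these rules, 33 stayed within 1.5 times the main count and 12 did not. The feedback list, with 4 of 25 genes, had 1 within 500 bp, whereas the clock list had the same number, 4. The share of windows with TTACATAA was 8.33% where the whole window or the centre was inside, 9.79% with 1 open position and 7.09% with 1 window per peak, the last chosen after the data were seen. No paired analysis was possible because the empty-vector library was not analysed here, and with 1 library in use none could be left out. Words were read in 37.5% of the peaks only.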

Other observations

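Some genes that no list held are given here with their distances. They were picked after their values were seen, with no count or test, and nothing is read from them as a group. Nlrc4 and Nlrp3, both inflammasome sensors, had peak centres 21 and 78 bp from the 5′ end. The peak of Cgas was 241 bp from an end, and that of Card9, an adaptor of antifungal receptors, 791 bp. Gbp3 was at 66 bp and Irf2, an interferon regulatory factor, at 191 bp. The chemokine genes Ccl3 and Ccl4 shared 1 peak, 108 bp from the 5′ end of Ccl3 and 862 bp from an unassigned end of Ccl4. Itgal, a leukocyte integrin, was at 109 bp, Itgb2, its beta chain, at 751 bp, and Itgb7 at 447 bp. Havcr2, the receptor TIM-3, was at 185 bp and C5ar2, a complement receptor, at 122 bp. Nfkb2, an NF-kappaB subunit, was at 401 bp.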
